A study of Homo sapiens with 9 samples.

Results

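The interferon-stimulated genes analysed here are 49 genes whose transcripts are known to rise when cells sense interferon, out of 33216 genes measured. They were listed by gene symbol, with no threshold on a measured value but with earlier results of these data known, and all 49 were found in each of the 9 libraries, DDX58 under that older symbol for RIGI. By role, 9 are sensors of foreign RNA, 4 are transcription factors of the pathway and 18 are antiviral effectors. A further 9 are genes of the ISG15 system, ubiquitin ligases or PARP enzymes, and 9 are other interferon-induced proteins. All 49 passed the filter on low values (a mean of at least 0.1 FPKM over the libraries of a comparison) in each comparison.

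RNA-sequencing was performed 48 h after transfection on CAL-27, an established line of squamous carcinoma cells of the human tongue. There were 3 groups of 3 libraries, namely Control, siLEF1 (small interfering RNA against LEF1, a transcription factor of the Wnt pathway) and siKDM4A (small interfering RNA against KDM4A, a histone lysine demethylase). The groups allow each knockdown to be set against Control and against the other. The deposited values are FPKM, which divide the fragments of a gene by the length of its transcript and by the size of the library, and 15263086 to 17126524 reads lay behind the scaling of a library. All groups were sampled at 48 h, but the siRNA used in Control, if any, was not given in the sources used here. No group was known to be untransfected, so a response of these genes to transfection itself cannot be told apart from the resting state of the line. If Control received no siRNA, such a response cannot be told apart from the effect of a knockdown either. Whatever Control received, the siRNAs against LEF1 and KDM4A differ in sequence. Effects of an siRNA other than on its target thus cannot be told apart from the loss of LEF1 or KDM4A. The study lists more than 1 siRNA against each gene, and which was used for these libraries was not given. All libraries come from 1 cell line. In Control, siLEF1 and siKDM4A, LEF1 was at 1.15 ± 0.1403, 0.249 ± 0.0204 and 0.880 ± 0.0673 FPKM and KDM4A at 16.5 ± 0.0944, 14.04 ± 0.250 and 2.77 ± 0.0112 FPKM (SD, n = 3), so the target of each siRNA was lowest in its own group. Of the exon bases of KDM4A, 40.2% are shared on the same strand with AL451062.3.

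Cells detect viral or misplaced RNA with helicases such as RIG-I (DDX58) and MDA5 (IFIH1), which signal through MAVS and the kinase TBK1 to IRF3 and NF-kB and switch on the genes of type I and type III interferons. Secreted interferon binds its receptors, activates the kinases JAK1 and TYK2, and assembles a complex with STAT2 and IRF9 that binds the interferon-stimulated response element (ISRE) in the promoters of the target genes. Many carcinoma lines keep a low, steady expression of these genes without added interferon, and several of the products, the sensors and STAT and IRF factors among them, feed back on the pathway itself.

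The promoters are shown first, because the ISRE is the sequence these genes are known to share. Windows from 250 bases before to 50 bases after the RefSeq start (GRCh38.p14) were available for 39 of the 49 genes. The core searched on both strands was GAAANNGAAA, the pair of GAAA repeats with 2 bases between them that lies within an ISRE. It occurred in 25 of these 39 windows (64.1%) and in 1255 of the 35116 promoter windows of the whole table (3.57%). By role the windows with a core were 4 of 6 for sensors, 0 of 3 for transcription factors, 10 of 13 for effectors, 4 of 8 for the ISG15 group and 7 of 9 for the remaining genes. The GAS core TTCNNNGAA, the gamma-activated site, which reads the same on both strands, occurred in 11 of the 39 windows (28.2%) and in 7.66% of all windows. A match of letters is a description and not a site in use, and a window without one says only that these letters are not in it.

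The stretches below hold the cores (in capitals, with 30 bases on either side, or up to the start of the gene where it is nearer) of genes whose values are given in the following paragraphs, written 5′ to 3′ on the strand of the gene. DDX60 had the largest fold change among the 49 genes in siKDM4A, and ISG15 had the highest level in Control. The IFIT genes are neighbours, of which IFIT2 was called in siLEF1 and IFIT1 and IFIT3 in siKDM4A. The IFITM genes are neighbours that were called in siLEF1 and not in siKDM4A. HERC6 and UBE2L6 are shown for contrast by the 100 bases before their starts, since neither window holds the core.
DDX60 (chr4:168318766-168318870, minus strand): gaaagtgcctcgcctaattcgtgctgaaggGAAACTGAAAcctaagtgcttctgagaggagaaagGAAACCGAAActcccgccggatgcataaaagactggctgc
IFIT1 (chr10:89392477-89392559, plus strand): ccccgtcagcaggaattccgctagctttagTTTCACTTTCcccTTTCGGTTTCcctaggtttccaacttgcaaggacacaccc
IFIT3 (chr10:89327811-89327914, plus strand): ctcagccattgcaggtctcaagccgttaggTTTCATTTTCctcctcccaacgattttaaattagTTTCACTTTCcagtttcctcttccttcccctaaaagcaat
IFITM1 (chr11:313970-314043, plus strand): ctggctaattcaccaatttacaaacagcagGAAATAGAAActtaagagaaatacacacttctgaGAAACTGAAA
IFITM3 (chr11:320861-320942, minus strand): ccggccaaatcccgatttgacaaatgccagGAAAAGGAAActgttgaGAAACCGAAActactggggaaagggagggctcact
ISG15 (chr1:1013354-1013429, plus strand): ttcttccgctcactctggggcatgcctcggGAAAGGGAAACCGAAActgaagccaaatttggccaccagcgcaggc
HERC6 (chr4:88378752-88378851, plus strand): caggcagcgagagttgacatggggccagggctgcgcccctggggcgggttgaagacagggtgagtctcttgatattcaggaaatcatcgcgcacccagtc
UBE2L6 (chr11:57567936-57568035, minus strand): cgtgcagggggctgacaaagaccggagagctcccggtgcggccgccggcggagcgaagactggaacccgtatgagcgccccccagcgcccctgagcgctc
In IFIT1 and IFIT3 the core lies on the opposite strand and therefore reads as TTTC repeats, in ISG15 a pair of cores overlap, and IFITM1 and IFITM3, which are near-copies of each other, carry a pair each close to the start.

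The CAL-27 cells expressed the pathway in Control. In each Control library 47 of the 49 genes were at 1 FPKM or more, though not the same genes in each. The level ranged from 0.104 to 0.508 FPKM for IRF9 up to 360 to 374 FPKM for ISG15. The median over the 49 genes was 17.3, 16.7 and 16.5 FPKM in the Control libraries, 14.1, 13.1 and 14.3 FPKM in the siLEF1 libraries and 10.97, 11.8 and 12.4 FPKM in the siKDM4A libraries. The highest siKDM4A median was thus below the lowest of siLEF1, and the highest of siLEF1 below the lowest of Control. Replicates lay close together, with a median coefficient of variation over the 49 genes of 4.24% in Control, 4.11% in siLEF1 and 5.22% in siKDM4A. In bulk RNA, fewer cells that express a gene and less RNA of it per cell cannot be told apart.

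**Figure D1:**
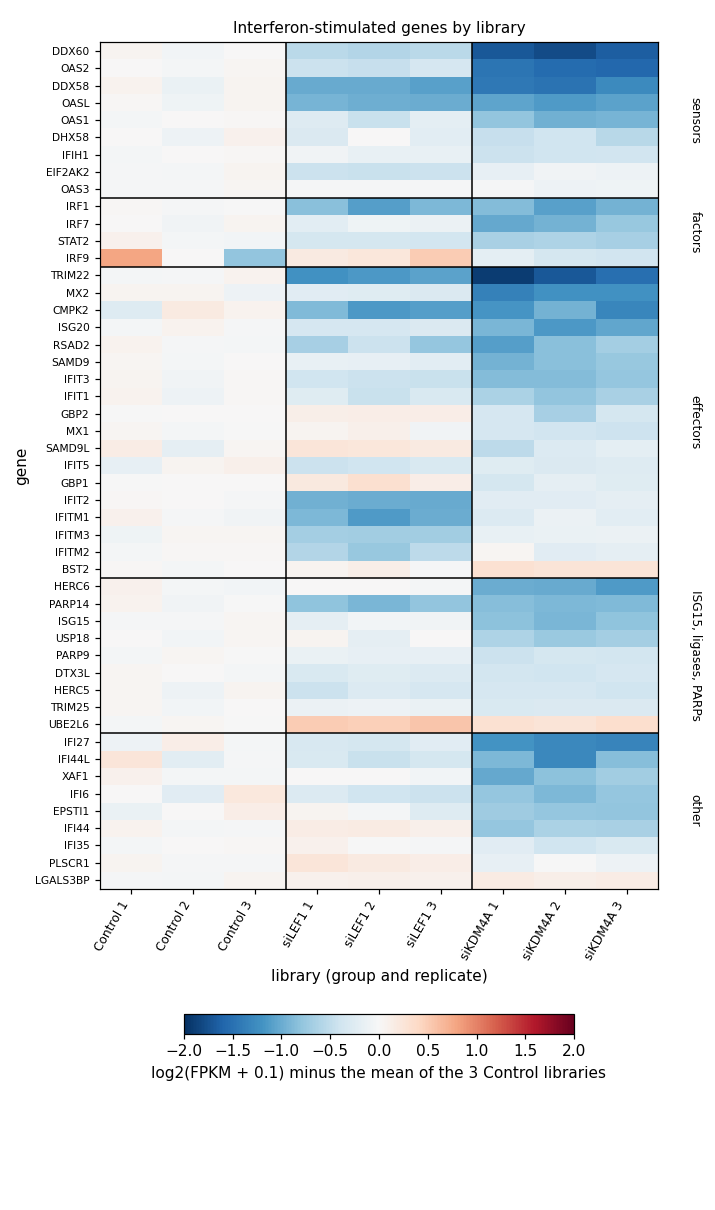
Heat map of the 49 genes (rows, grouped by role and ordered by the siKDM4A difference) in the 9 libraries (columns); the colour gives log2(FPKM + 0.1) minus the mean of the 3 Control libraries. The siKDM4A columns are blue in most rows, the siLEF1 columns in fewer, and UBE2L6 is red in both knockdowns, at 143% and 123% of Control.

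Each knockdown was compared with the same 3 Control libraries with limma on log2(FPKM + 0.1), and a gene was called raised or lowered at an adjusted p below 0.05 (Benjamini-Hochberg, over all genes tested) and a fold change above 1.5. In siLEF1, 11 of the 49 genes were lowered (22.4%) and 0 raised, where 5.31% of the 21831 genes tested were lowered and 6.31% raised. In siKDM4A, 26 of the 49 were lowered (53.1%) and 0 raised, where 7.80% of 21253 genes tested were lowered and 4.23% raised. The median log2 fold change of the 49 genes was -0.27 in siLEF1, against -0.0069 over all genes, and -0.68 in siKDM4A, against -0.054 over all genes. In 33 of the 49 genes every siLEF1 library was below every Control library (24.2% of all genes tested) and in 7 every one was above (22.2%). For siKDM4A these numbers were 43 below (27.2% of all genes) and 3 above (20.0%). Between the knockdowns, every siKDM4A library was below every siLEF1 library in 35 of the 49 genes (27.7% of the 21587 genes tested). Every one was above in 8 (4652 of the 21587). With the fold change left aside, an adjusted p below 0.05 was reached by 28 lower and 5 higher genes in siLEF1 and by 40 lower and 3 higher genes in siKDM4A. In either direction it was reached by 7104 of the 21831 genes tested in siLEF1 and 7025 of the 21253 in siKDM4A. With a fold change above 2 as well, 4 and 11 of the 49 were lower, and the share of all genes was not computed. None of the 49 was raised at an unadjusted p below 0.05 and a fold change above 1.5 either, nor by limma-voom on the reads recovered from the FPKM, and the same holds at the unadjusted p for each list below in which 0 genes were called. The comparisons share the Control libraries, so their values are given side by side and their likeness is not a result.

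**Figure D2:**
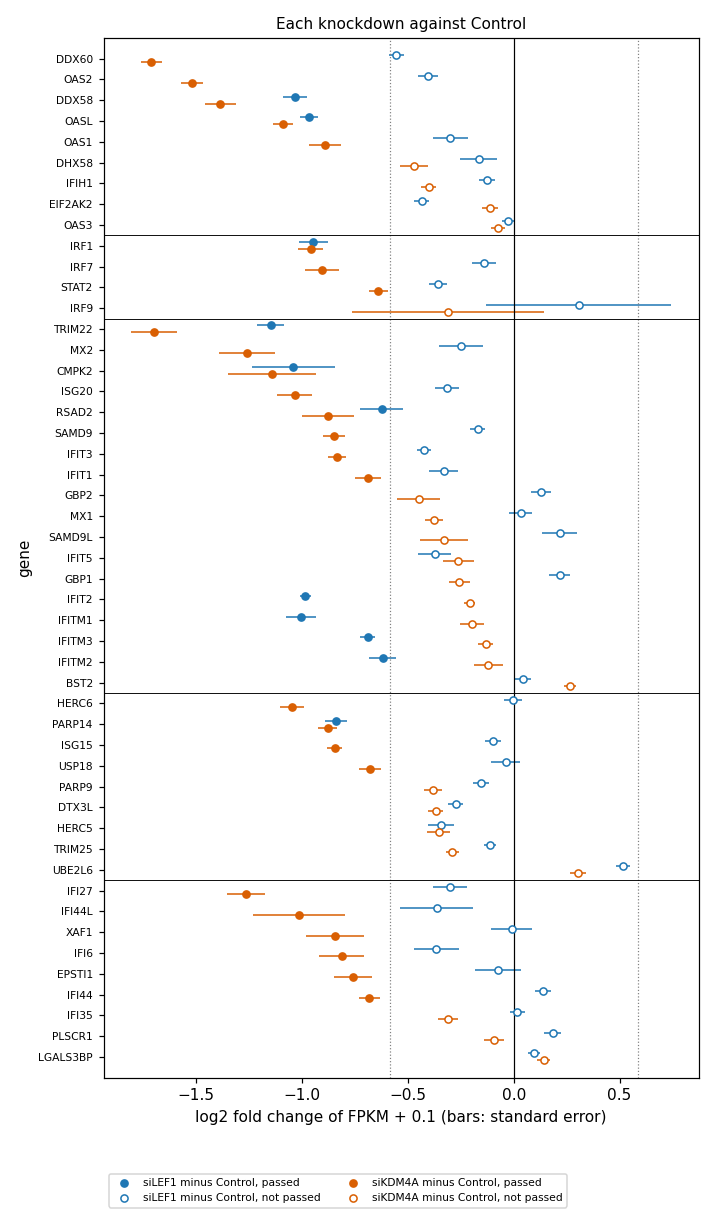
Log2 fold change (horizontal axis, of FPKM + 0.1) of each of the 49 genes in siLEF1 (blue) and siKDM4A (orange) against Control, with standard errors; filled points passed the limma thresholds and dotted lines mark a fold change of 1.5. Filled points number 11 in blue and 26 in orange, all on the left of 0, and IRF9 has the widest error bars.

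Among the 9 sensors, 2 were lowered in siLEF1 (DDX58 and OASL) and 5 in siKDM4A (DDX60, OAS2, DDX58, OASL and OAS1), with medians of -0.40 and -0.89 on the log2 scale, and none was raised. The shares over all genes were 5.31% lowered in siLEF1 and 7.80% in siKDM4A. DDX58 encodes RIG-I, the helicase that recognises RNA ends carrying a triphosphate. Its level was 53.0, 45.9 and 52.1 FPKM in the Control libraries, 24.9, 24.8 and 23.7 in siLEF1 and 18.7, 18.1 and 20.8 in siKDM4A. The 3 groups did not overlap, and siLEF1 and siKDM4A stood at 48.6% and 38.1% of Control. By limma the log2 fold change was -1.03 ± 0.058 (SE, adjusted p = 3.6e-05) in siLEF1 and -1.39 ± 0.073 (adjusted p = 3.2e-05) in siKDM4A. DDX60, a helicase reported to assist RIG-I signalling, was at 50.2, 46.2 and 48.2 FPKM in Control, 33.0, 32.2 and 33.1 in siLEF1 and 14.8, 13.8 and 15.3 in siKDM4A. Every siKDM4A library held less than every siLEF1 library, and every siLEF1 library less than every Control library. In siKDM4A DDX60 fell by 1.71 on the log2 scale (SE 0.049, adjusted p = 4.5e-06), the largest change of the 49 genes, whereas in siLEF1 it was at -0.56 (adjusted p = 6.2e-05), just short of a fold change of 1.5.

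Of the remaining sensors outside the OAS family none was called. IFIH1, which encodes MDA5, was at 14.04 ± 0.324 FPKM in Control, 12.9 ± 0.388 in siLEF1 and 10.6 ± 0.204 in siKDM4A (SD, n = 3). Its log2 differences of -0.13 and -0.40 stayed under the fold threshold, although the groups did not overlap. DHX58 (LGP2), a regulator of RIG-I and MDA5, was at 8.30 ± 0.546 FPKM in Control, 7.41 ± 0.822 in siLEF1 and 5.96 ± 0.316 in siKDM4A, and only the siKDM4A libraries were clear of the Control range. EIF2AK2, the kinase PKR that halts translation on double-stranded RNA, showed the other order, with 21.4, 21.3 and 22.6 FPKM in Control, 16.1, 15.9 and 16.2 in siLEF1 and 19.5, 20.7 and 20.3 in siKDM4A. Its lowest values were those of siLEF1 (log2 difference -0.44 ± 0.033, adjusted p = 0.00014), and siKDM4A lay near Control (-0.11, adjusted p = 0.067).

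The oligoadenylate synthetases make the messenger that activates RNase L, and OAS1, OAS3 and OAS2 lie next to each other on the plus strand of chromosome 12 (GRCh38, OAS1 at 112906777 to 112933222, OAS3 at 112938352 to 112973249, OAS2 at 112978395 to 113011723), whereas OASL lies further along the chromosome on the minus strand (121019111 to 121039242). Of these 4 genes, 1 was lowered in siLEF1 and 3 in siKDM4A, beside 5.31% and 7.80% of all genes. OAS2 was at 10.6, 10.3 and 10.9 FPKM in Control, 7.87, 7.70 and 8.39 in siLEF1 and 3.78, 3.60 and 3.50 in siKDM4A, or 75.3% and 34.2% of Control. OAS1 was at 3.93, 4.07 and 4.13 FPKM in Control, 3.35, 2.94 and 3.54 in siLEF1 and 2.303, 2.03 and 2.08 in siKDM4A. OAS3, between them on the chromosome, was at 21.97, 21.9 and 22.9 FPKM in Control, 21.9, 21.9 and 21.8 in siLEF1 and 21.8, 20.7 and 20.9 in siKDM4A. OAS1 and OAS2 were thus graded from Control through siLEF1 to siKDM4A without overlap, while OAS3 stood at 98.2% and 94.9% of Control. In siKDM4A the log2 fold change was -1.52 ± 0.051 for OAS2 (adjusted p = 7.4e-06), -0.89 ± 0.078 for OAS1 (adjusted p = 0.00024) and -0.07 ± 0.035 for OAS3 (adjusted p = 0.15). OASL, which lacks synthetase activity and enhances RIG-I signalling, was at 35.8, 33.0 and 36.5 FPKM in Control, 18.3, 17.8 and 17.7 in siLEF1 and 16.8, 15.9 and 16.6 in siKDM4A. Both knockdowns lay near the same level, 51.0% and 46.8% of Control, with log2 fold changes of -0.97 (adjusted p = 1.5e-05) and -1.09 (adjusted p = 1.5e-05).

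Of the 4 transcription factors, IRF1 was lowered in siLEF1 and IRF1, IRF7 and STAT2 in siKDM4A (5.31% and 7.80% of all genes). IRF1, a factor induced by interferon gamma and by NF-kB that binds ISRE-like elements, was at 14.5, 14.1 and 14.1 FPKM in Control, 7.91, 6.60 and 7.56 in siLEF1 and 7.80, 6.69 and 7.37 in siKDM4A. Both knockdowns were near 50% of Control (51.6% and 51.2%) and overlapped each other, with log2 fold changes of -0.95 ± 0.069 (adjusted p = 0.00011) and -0.96 ± 0.060 (adjusted p = 6.3e-05). IRF7, the factor that amplifies interferon production, was at 7.38, 7.06 and 7.70 FPKM in Control, 6.33, 6.95 and 6.79 in siLEF1 and 3.57, 3.80 and 4.33 in siKDM4A. The siLEF1 libraries lay just under the Control range (-0.14, adjusted p = 0.11), and those of siKDM4A stood well apart from both (-0.91, adjusted p = 0.00027). STAT2 was at 28.1, 25.7 and 25.4 FPKM in Control, 20.6, 20.5 and 20.5 in siLEF1 and 16.9, 17.2 and 16.6 in siKDM4A. Its groups were graded without overlap, and only the siKDM4A change passed the fold threshold (-0.36, adjusted p = 0.00088, and -0.64, adjusted p = 9.9e-05). IRF9, the DNA-binding partner of STAT2, was at 0.508, 0.255 and 0.104 FPKM in Control, 0.299, 0.314 and 0.402 in siLEF1 and 0.209, 0.178 and 0.169 in siKDM4A, with as few as 6 reads in a library. Its level is uncertain, because 48.4% of its exon bases are shared on the same strand with AL136295.5, and no difference passed (adjusted p = 0.65 and 0.66). For IRF1, 22% of the exon bases lie opposite exons of antisense genes, and the strand setting of the counting was not given in the sources used here.

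**Figure D3:**
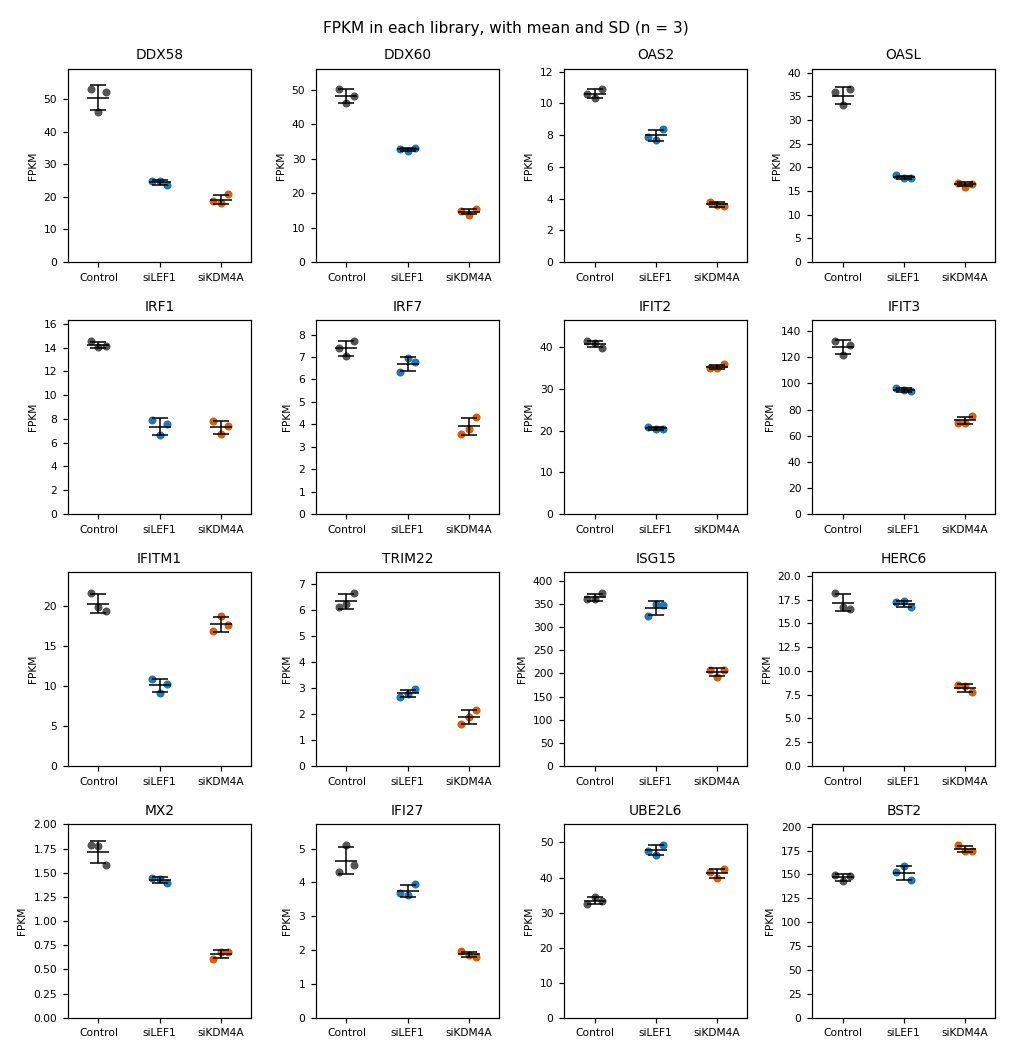
FPKM (vertical axes, from 0) of 16 genes in each library of Control, siLEF1 and siKDM4A (points), with the mean and SD of 3 libraries (black bars). IRF1 and OASL fell to similar levels in both knockdowns, DDX60, OAS2, HERC6 and IFI27 were lowest in siKDM4A, and IFIT2 and IFITM1 were lowest in siLEF1.

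Among the 18 effectors the IFITM genes and IFIT2 were lowered in siLEF1, and MX2, ISG20, SAMD9, IFIT3 and IFIT1 in siKDM4A. In siLEF1, 7 were lowered and in siKDM4A 8, with TRIM22, CMPK2 and RSAD2 counted in both, and with medians of -0.35 and -0.41. Of all genes tested, 5.31% and 7.80% were lowered. TRIM22, a ubiquitin ligase that restricts retroviruses and influenza virus, was at 6.12, 6.21 and 6.65 FPKM in Control, 2.67, 2.79 and 2.94 in siLEF1 and 1.62, 1.88 and 2.16 in siKDM4A. It was the most strongly lowered of the 49 genes in siLEF1 (-1.15 ± 0.064, adjusted p = 3.7e-05) and fell further in siKDM4A (-1.70 ± 0.11, adjusted p = 6.9e-05), and 10.7% of its exon bases are shared with OR56B1 on the same strand. CMPK2 and RSAD2 lie head to head on chromosome 2 and encode a nucleotide kinase and viperin, which turns a nucleotide into a chain terminator of viral RNA. CMPK2 was at 1.06 ± 0.178 FPKM in Control, 0.463 ± 0.0567 in siLEF1 and 0.425 ± 0.0671 in siKDM4A (SD, n = 3), and RSAD2 at 3.48 ± 0.148 FPKM in Control, 2.23 ± 0.280 in siLEF1 and 1.86 ± 0.283 in siKDM4A. Both were lowered in both comparisons, with log2 fold changes in siLEF1 and siKDM4A of -1.04 and -1.14 for CMPK2 and of -0.62 and -0.88 for RSAD2. CMPK2 held as few as 27 reads in a library. The RSAD2 call in siLEF1 was lost without siLEF1 replicate 3, at -0.55.

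The IFIT genes encode antiviral proteins. IFIT2, IFIT3, IFIT1 and IFIT5 lie in this order on the plus strand of chromosome 10 (IFIT2 at 89283694 to 89309276, IFIT5 at 89414586 to 89421001). IFIT2 was at 41.4, 40.9 and 39.9 FPKM in Control, 20.9, 20.4 and 20.3 in siLEF1 and 35.0, 34.9 and 35.9 in siKDM4A. IFIT3 was at 132, 122 and 129 FPKM in Control, 96.7, 94.6 and 93.9 in siLEF1 and 70.0, 69.9 and 74.9 in siKDM4A. IFIT1 was at 21.1, 18.7 and 20.4 FPKM in Control, 16.9, 14.6 and 16.3 in siLEF1 and 12.9, 11.6 and 12.8 in siKDM4A. None of these 3 genes had overlapping groups, but IFIT2 was lowest in siLEF1 (50.4% of Control, against 86.5% in siKDM4A), whereas IFIT3 (74.4% and 56.0%) and IFIT1 (79.4% and 61.9%) were lowest in siKDM4A. The call in siLEF1 was of IFIT2 (log2 fold change -0.98 ± 0.027, adjusted p = 4.3e-06), and the calls in siKDM4A were of IFIT3 (-0.83 ± 0.042, adjusted p = 3.1e-05) and IFIT1 (-0.69 ± 0.062, adjusted p = 0.00028). IFIT5 was at 14.3, 16.8 and 17.4 FPKM in Control, 11.96, 12.2 and 13.1 in siLEF1 and 13.5, 13.2 and 13.5 in siKDM4A. Its log2 differences of -0.37 and -0.26 passed neither comparison's fold threshold.

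The IFITM proteins sit in cell and endosomal membranes and block the entry of enveloped viruses, and their genes lie together on chromosome 11 (IFITM2 at 307631 to 315272, IFITM1 at 313506 to 315272, IFITM3 on the opposite strand at 319669 to 327537). IFITM3 was at 214, 231 and 233 FPKM in Control, 140.5, 139.7 and 139 in siLEF1 and 204, 206 and 207 in siKDM4A. IFITM1 was at 21.6, 20.0 and 19.4 FPKM in Control, 10.9, 9.19 and 10.2 in siLEF1 and 16.9, 18.8 and 17.6 in siKDM4A. IFITM2 was at 31.3, 32.8 and 32.6 FPKM in Control, 21.4, 19.0 and 22.5 in siLEF1 and 33.2, 27.7 and 28.4 in siKDM4A. All 3 were lowered in siLEF1, with log2 fold changes of -1.01 ± 0.071 for IFITM1 (adjusted p = 9.5e-05), -0.69 ± 0.036 for IFITM3 (adjusted p = 2.6e-05) and -0.62 ± 0.062 for IFITM2 (adjusted p = 0.00044). In siKDM4A they stood at 87.3%, 91.1% and 92.3% of Control, and none passed the fold threshold. The call of IFITM2 in siLEF1 was lost without siLEF1 replicate 2, at -0.55. The IFITM genes are near-copies of each other, and 32.5% of the exon bases of IFITM1 and 22.7% of those of IFITM2 are annotated to both, so the share of each is uncertain.

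MX1 and MX2 lie side by side on chromosome 21 and encode dynamin-like GTPases that trap viral capsids. MX1 was at 9.30, 8.85 and 9.01 FPKM in Control, 9.44, 9.74 and 8.62 in siLEF1 and 7.15, 6.88 and 6.80 in siKDM4A. MX2 was at 1.79, 1.77 and 1.58 FPKM in Control, 1.45, 1.44 and 1.39 in siLEF1 and 0.607, 0.685 and 0.680 in siKDM4A. MX2 was lowered in siKDM4A (-1.26 ± 0.13, adjusted p = 0.00054), while its neighbour, at -0.38 (adjusted p = 0.0008), stayed under the fold threshold, and neither passed in siLEF1 (-0.25 and 0.03). SAMD9 and SAMD9L, which inhibit poxvirus growth, are adjacent on chromosome 7. SAMD9 was at 21.6, 20.5 and 21.4 FPKM in Control, 19.2, 18.9 and 18.3 in siLEF1 and 10.97, 11.8 and 12.4 in siKDM4A, and SAMD9L at 11.02, 8.76 and 10.2 FPKM in Control, 11.8, 11.7 and 11.3 in siLEF1 and 6.87, 8.25 and 8.68 in siKDM4A. SAMD9 fell in siKDM4A (-0.85 ± 0.052, adjusted p = 5.9e-05), whereas SAMD9L, at -0.33, did not pass (adjusted p = 0.067). ISG20, an exonuclease that degrades viral RNA, was at 4.69 ± 0.191 FPKM in Control, 3.74 ± 0.0735 in siLEF1 and 2.24 ± 0.193 in siKDM4A (SD, n = 3), and only the latter passed (-1.04, adjusted p = 0.00018).

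The remaining effectors passed neither fold threshold. BST2 (tetherin), which holds budding virus particles at the cell surface, was the third most abundant of the 49 genes in Control, at 149.5, 143 and 148 FPKM, and was at 152, 159 and 144 FPKM in siLEF1 and 181, 175 and 175 FPKM in siKDM4A. Every siKDM4A library lay above every other library, at 120.3% of Control (log2 difference 0.27 ± 0.027, adjusted p = 0.00047). The guanylate-binding proteins GBP1 and GBP2, GTPases that attack the membranes of intracellular pathogens, were at 13.6 ± 0.113 and 4.29 ± 0.0373 FPKM in Control, 15.8 ± 0.992 and 4.70 ± 0.0170 in siLEF1, and 11.4 ± 0.675 and 3.13 ± 0.404 in siKDM4A (SD, n = 3). For both genes the siLEF1 libraries were above and the siKDM4A libraries below the Control range, with log2 differences of 0.22 and 0.13 in siLEF1 and -0.26 and -0.45 in siKDM4A.

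In the group of ISG15, its conjugation enzymes and the PARPs, 1 of 9 genes was lowered in siLEF1 (PARP14) and 4 in siKDM4A (HERC6, PARP14, ISG15 and USP18), with medians of -0.11 and -0.38. Of all genes, 5.31% were lowered in siLEF1 and 7.80% in siKDM4A, and 1 call among 9 genes is too few to set against the former. ISG15, the ubiquitin-like protein that is attached to other proteins during an interferon response, was the most abundant of the 49 genes in Control, at 360.2, 361 and 374 FPKM, and was at 324, 351 and 349 in siLEF1 and 208, 193 and 208 in siKDM4A. The siKDM4A libraries lay far below the rest, at 55.6% of Control (-0.85 ± 0.036, adjusted p = 1.6e-05), while siLEF1 lay at 93.5% (-0.10, adjusted p = 0.089). USP18, the protease that removes ISG15 and also restrains the interferon receptor, was at 10.6 ± 0.352 FPKM in Control, 10.4 ± 0.896 in siLEF1 and 6.59 ± 0.284 in siKDM4A (SD, n = 3; -0.68 in siKDM4A, adjusted p = 0.00012). UBE2L6, the enzyme that carries ISG15 to its ligases, did not share this direction. It was at 32.4, 34.4 and 33.2 FPKM in Control, 47.6, 46.4 and 49.3 in siLEF1 and 41.4, 39.8 and 42.3 in siKDM4A. Every library of either knockdown was above every Control library, and the log2 differences of 0.52 ± 0.034 (adjusted p = 7.5e-05) and 0.30 ± 0.036 (adjusted p = 0.00086) had the highest values of the 49 genes in both comparisons without reaching a fold change of 1.5.

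HERC6 and HERC5 are adjacent on chromosome 4 and encode HECT-type ligases, of which HERC5 is the main ISG15 ligase in human cells. HERC6 was at 18.2, 16.7 and 16.5 FPKM in Control, 17.2, 17.3 and 16.7 in siLEF1 and 8.53, 8.43 and 7.74 in siKDM4A. HERC5 was at 10.3, 9.38 and 10.4 FPKM in Control, 7.45, 8.27 and 7.91 in siLEF1 and 7.91, 7.94 and 7.58 in siKDM4A. HERC6 in siLEF1 lay within the Control range and in siKDM4A fell by 1.05 on the log2 scale (SE 0.057, adjusted p = 3.6e-05), whereas HERC5, at -0.34 in siLEF1 and -0.35 in siKDM4A, did not pass the fold threshold. PARP14, a mono-ADP-ribosyltransferase, was at 26.3, 23.7 and 24.8 FPKM in Control, 14.1, 13.1 and 14.3 in siLEF1 and 13.8, 13.3 and 13.4 in siKDM4A, and it was lowered in both, with log2 fold changes of -0.84 (adjusted p = 5.3e-05) and -0.88 (adjusted p = 3e-05). PARP9 and its partner ligase DTX3L, which start from a shared region of chromosome 3 on opposite strands, did not pass the fold threshold. PARP9 was at 10.4, 11.04 and 10.6 FPKM in Control, 9.71, 9.51 and 9.56 in siLEF1 and 7.93, 8.37 and 8.26 in siKDM4A. DTX3L was at 25.6, 25.2 and 24.2 FPKM in Control, 20.1, 21.1 and 20.6 in siLEF1 and 19.4, 18.9 and 19.7 in siKDM4A. Both were graded from Control through siLEF1 to siKDM4A, and their log2 differences in siKDM4A were -0.38 and -0.37. TRIM25, the ligase that ubiquitinates RIG-I, was at 40.6 ± 1.29 FPKM in Control, 37.6 ± 0.340 in siLEF1 and 33.1 ± 0.196 in siKDM4A (SD, n = 3) and passed neither fold threshold.

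Among the 9 other interferon-induced genes, 0 were lowered in siLEF1 and 6 in siKDM4A (IFI27, IFI44L, XAF1, IFI6, EPSTI1 and IFI44), with medians of -0.011 and -0.76. All genes tested gave 5.31% and 7.80% lowered, and 9 genes are too few to tell 0 from the share in siLEF1. IFI27, a mitochondrial protein often used as a blood marker of viral infection, was at 4.32, 5.11 and 4.52 FPKM in Control, 3.68, 3.62 and 3.95 in siLEF1 and 1.97, 1.85 and 1.80 in siKDM4A. The siKDM4A libraries stood at 40.3% of Control (-1.26 ± 0.088, adjusted p = 9.6e-05). IFI44 and IFI44L, adjacent on chromosome 1, both fell in siKDM4A. IFI44 was at 66.2, 61.1 and 62.0 FPKM in Control, 70.1, 71.0 and 67.3 in siLEF1 and 36.7, 40.8 and 40.4 in siKDM4A, so that siLEF1 lay above Control and siKDM4A below. IFI44L was at 1.22, 0.855 and 0.992 FPKM in Control, 0.800, 0.717 and 0.774 in siLEF1 and 0.494, 0.353 and 0.519 in siKDM4A, graded in one direction. In siKDM4A the log2 fold changes were -0.68 ± 0.051 (adjusted p = 0.00013) and -1.01 ± 0.22 (adjusted p = 0.012), and in siLEF1 neither gene passed (0.14 and -0.36). XAF1, a pro-apoptotic antagonist of the inhibitor XIAP, was at 1.79, 1.62 and 1.61 FPKM in Control, 1.69, 1.68 and 1.61 in siLEF1 and 0.774, 0.898 and 0.997 in siKDM4A. Its difference in siLEF1 was -0.01 ± 0.098 (adjusted p = 0.95), and it fell in siKDM4A (-0.85, adjusted p = 0.0037), with 38.3% of its exon bases opposite the antisense gene PRAL. IFI6, a small membrane protein that protects infected cells, and EPSTI1, first described in breast cancer, were lowered as well, with log2 fold changes of -0.81 and -0.76. IFI35, a partner of NMI, was at a log2 difference of 0.02 in siLEF1 and -0.31 in siKDM4A, PLSCR1, a phospholipid scramblase, at 0.18 and -0.09, and LGALS3BP, a secreted glycoprotein, at 0.09 and 0.14, none beyond the fold threshold.

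The difference between the knockdowns was tested directly, as siKDM4A against siLEF1 in 1 limma fit of all 9 libraries. Of the 49 genes, 15 were lower in siKDM4A (30.6%) and 2 higher, where 10.3% of the 21587 genes tested were lower and 5.38% higher, and the median log2 difference was -0.35 (-0.049 over all genes). The 15 genes were DDX60, OAS2, HERC6, MX2, IFI27, XAF1, IFI44, IRF7, ISG15, ISG20, EPSTI1, SAMD9, IFI44L, USP18 and OAS1. By role they were 3 of 9 sensors, 1 of 4 factors, 3 of 18 effectors, 3 of 9 genes of the ISG15 group and 5 of 9 others. The largest differences were those of DDX60 (-1.16 ± 0.044, adjusted p = 1.6e-07), OAS2 (-1.12 ± 0.050, adjusted p = 4.1e-07) and HERC6 (-1.04 ± 0.050, adjusted p = 5.8e-07). The 2 genes higher in siKDM4A than in siLEF1 were IFITM1 (0.81 ± 0.069, adjusted p = 2e-05) and IFIT2 (0.78 ± 0.026, adjusted p = 8.3e-08). The IFITM neighbours had the same sign but stayed under the fold threshold (0.56 for IFITM3 and 0.50 for IFITM2), whereas IFIT3 and IFIT1, the neighbours of IFIT2, had the opposite sign (-0.41 and -0.36). The differences did not pass for IRF1 (-0.01 ± 0.075, adjusted p = 0.93), HERC5 (-0.01 ± 0.055, adjusted p = 0.91) or PARP14 (-0.04 ± 0.047, adjusted p = 0.57). OAS1, at -0.59, sat at the fold threshold, and lost its call without siLEF1 replicate 1 or 3 or siKDM4A replicate 2 or 3, at -0.54 to -0.57. The call of IFI44L, at -0.65, was lost without siLEF1 replicate 1 or 3 or siKDM4A replicate 2, at -0.62, -0.64 and -0.51. With a pseudocount of 1 FPKM, 8 of the genes were lower in siKDM4A.

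**Figure D4:**
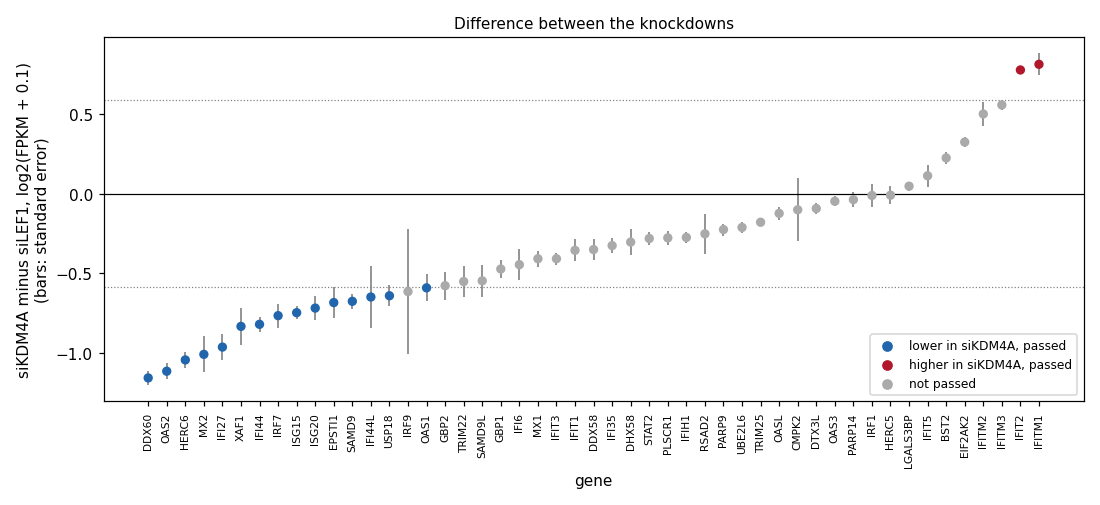
Difference of siKDM4A minus siLEF1 on log2(FPKM + 0.1) (vertical axis) for the 49 genes in order of size, with standard errors; blue and red points passed the limma thresholds and dotted lines mark a fold change of 1.5. The 15 blue points run from DDX60 to OAS1, and the 2 red points at the right are IFIT2 and IFITM1.

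The calls were also counted by the promoter letters shown above. Genes without a promoter window were left out, namely DHX58, GBP2, OAS2, OASL, IRF7, IFIT2, MX2, IFITM2, TRIM22 and USP18. Of these, OASL, IFIT2, IFITM2 and TRIM22 were lowered in siLEF1, and OAS2, OASL, IRF7, MX2, TRIM22 and USP18 in siKDM4A. Among the 39 genes with a promoter window, siLEF1 lowered 3 of the 25 with the ISRE core and 4 of the 14 without it, with medians of -0.30 and -0.13 on the log2 scale. In siKDM4A 12 of 25 and 8 of 14 were lowered, with medians of -0.40 and -0.74. Over all genes tested, 5.31% were lowered in siLEF1 and 7.80% in siKDM4A. With a spacing of 1 to 3 bases in the core the order of the siKDM4A medians turned, to -0.68 for 31 genes with the core (16 lowered) and -0.51 for 8 without it (4 lowered). HERC6, printed above without a core, fell in siKDM4A like ISG15 with its overlapping cores, and IFITM1 and IFITM3, with a pair of cores each, fell in siLEF1. These counts are a description and were not tested.

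The interferon genes themselves were at low levels. Of the 10 interferon genes found, 5 passed the filter (IFNB1, IFNE, IFNL1, IFNL2 and IFNL3), and 4 of these were lowered in siLEF1 and 2 in siKDM4A (5.31% and 7.80% of all genes). IFNL1, a type III interferon of epithelial cells, was at 2.17, 2.404 and 2.83 FPKM in Control (29, 32 and 37 reads), 0.883, 0.953 and 1.30 in siLEF1 and 0.498, 1.72 and 2.11 in siKDM4A. Every library of either knockdown was below every Control library, with a log2 fold change of -1.18 ± 0.17 in siLEF1 (adjusted p = 0.0024), while the siKDM4A libraries were spread and their difference did not pass (-0.93, adjusted p = 0.19). IFNB1, the main type I interferon of epithelial cells, was at 1.27, 0.825 and 0.915 FPKM in Control, 0.440, 0.512 and 0.547 in siLEF1 and 1.06, 0.927 and 0.204 in siKDM4A, on 3 to 17 reads. It was lowered in siLEF1 (-0.86, adjusted p = 0.021), and in siKDM4A the groups overlapped (-0.61, adjusted p = 0.43). IFNL2 and IFNL3 are near-identical copies whose reads may be split between them, and their summed reads were 62, 55 and 49 in Control, 18, 11 and 19 in siLEF1 and 6, 5 and 14 in siKDM4A. Taken singly, IFNL2 had log2 fold changes of -1.91 in siLEF1 (adjusted p = 0.0017) and -3.40 in siKDM4A (adjusted p = 7.8e-05), and IFNL3 of -1.61 (adjusted p = 0.00044) and -2.16 (adjusted p = 0.0052). IFNE, an epithelial interferon, did not pass (-0.33 and -0.70), and IFNA1, IFNA2, IFNA21, IFNK and IFNW1 held at most 3 reads in a library. The other interferon alpha genes and IFNG were not analysed here.

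**Figure D5:**
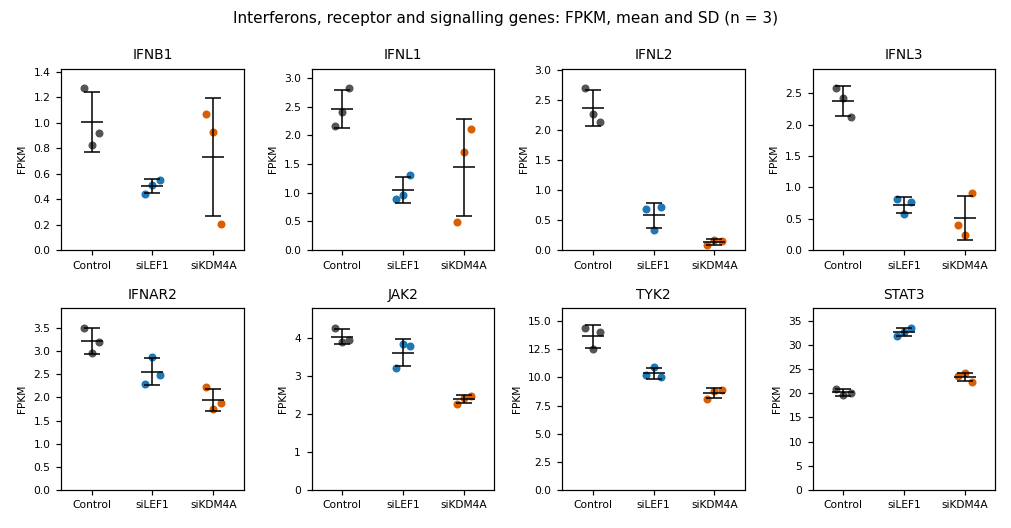
FPKM (vertical axes, from 0) of 4 interferon genes (top) and 4 receptor and signalling genes (bottom) in each library (points), with the mean and SD of 3 libraries. The interferon genes sat at or below 2.83 FPKM, the siKDM4A libraries of IFNB1 and IFNL1 were spread, and STAT3 was highest in siLEF1.

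Of 10 receptor, kinase and STAT genes, 0 were lowered and 1 raised in siLEF1, and 3 were lowered and 0 raised in siKDM4A, where 6.31% of all genes were raised in siLEF1 and 7.80% lowered in siKDM4A. The raised gene was STAT3, which mainly serves cytokines such as interleukin 6, from 20.2 ± 0.631 FPKM in Control to 32.8 ± 0.834 in siLEF1 (SD, n = 3; log2 fold change 0.70, adjusted p = 2.3e-05). The lowered genes were JAK2 (-0.74, adjusted p = 0.00044), the receptor chain IFNAR2 (-0.70, adjusted p = 0.004) and TYK2 (-0.66, adjusted p = 0.00045). The level of IFNAR2 is uncertain, because 44.2% of its exon bases are shared on the same strand with AP000295.1 and 39.1% lie opposite antisense genes. TYK2, the kinase bound to IFNAR1, was at 14.4, 12.5 and 14.02 FPKM in Control, 10.2, 10.9 and 10.03 in siLEF1 and 8.11, 8.83 and 8.89 in siKDM4A. STAT2, described above, had a difference between the knockdowns of -0.28 (adjusted p = 0.00041).

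Upstream of the interferon genes, 2 of 13 adaptor, kinase and factor genes were lowered in each knockdown (5.31% of all genes in siLEF1 and 7.80% in siKDM4A) and 0 raised. CGAS, the cytosolic DNA sensor, was at 13.4, 14.2 and 14.9 FPKM in Control, 4.92, 5.11 and 4.92 in siLEF1 and 14.7, 14.4 and 16.7 in siKDM4A, and its fall in siLEF1 (-1.49 ± 0.051, adjusted p = 7.3e-06) stood beside a value near Control in siKDM4A (0.11, adjusted p = 0.29; difference 1.60, adjusted p = 2e-07). TMEM173, which encodes STING, the adaptor that CGAS signals to, was lowered in siKDM4A, with 10.01, 9.62 and 9.43 FPKM in Control, 9.15, 9.18 and 10.8 in siLEF1 and 3.94, 4.46 and 4.35 in siKDM4A (-1.17, adjusted p = 3.2e-05; difference -1.17, adjusted p = 3.3e-06). RIPK1, a kinase of death receptor and RIG-I signalling, was lowered in both, from 20.8 ± 1.14 FPKM to 8.57 ± 0.318 in siLEF1 and 11.7 ± 0.737 in siKDM4A (SD, n = 3). CGAS and TMEM173 thus passed in opposite directions in the direct comparison of the knockdowns. MAVS, TBK1 and IRF3, the core of RNA sensing, passed neither fold threshold, with log2 differences of -0.04, -0.52 and -0.26 in siLEF1 and -0.42, -0.34 and -0.22 in siKDM4A. Of 6 inhibitors of the pathway, SOCS1 was lowered in siKDM4A (-0.85, adjusted p = 0.0077), where 7.80% of all genes were lowered. In siLEF1 0 of 6 passed, where 5.31% of all genes were lowered and 6.31% raised.

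Squamous markers moved with siKDM4A. Of 10 squamous epithelial markers, 8 were lowered and 1 raised in siKDM4A (7.80% and 4.23% of all genes, as above). In siLEF1 0 were lowered and 1 raised (5.31% and 6.31% of all genes). Summed over the 10 genes, the Control libraries held 1264 to 1312 FPKM, those of siLEF1 1406 to 1421 and those of siKDM4A 507 to 523. KRT5, a basal keratin, fell from 232 ± 12.2 FPKM to 25.4 ± 1.57 in siKDM4A, and TP63, the basal epithelial factor, from 31.6 ± 0.164 to 11.9 ± 0.584 (SD, n = 3), while EPCAM was raised (0.60). The part of this shift in the values of the interferon-stimulated genes was not tested. Of 9 immune markers, 6 held at most 3 reads in each Control library and each siKDM4A library, and 5 in each siLEF1 library, and PTPRC, the pan-leukocyte marker, held at most 2. CD68 was among these genes, and its level is uncertain, because 81.7% of its exon bases are shared on the same strand with AC016876.2. Summed over the 9 genes, the Control libraries held 3.26 to 4.68 FPKM, those of siLEF1 2.89 to 3.33 and those of siKDM4A 1.91 to 2.41, most of it CD14 (3.23 ± 0.725 FPKM in Control, 2.29 ± 0.0952 in siLEF1 and 1.79 ± 0.292 in siKDM4A), and CD14 and ITGAM, 2 of the 3 that passed the filter, were lowered in siKDM4A. Of 7 fibroblast and endothelial markers, 5 passed the filter in siLEF1, of which 3 were raised (COL1A2, PDGFRB and CDH5). In siKDM4A 4 passed the filter, of which CDH5 was raised. Over all genes tested, 6.31% were raised in siLEF1 and 4.23% in siKDM4A. The 7 markers summed to 3.92 to 4.99 FPKM in the Control libraries, 6.88 to 7.97 in those of siLEF1 and 5.503 to 6.02 in those of siKDM4A. The part of these markers in the result was not tested.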

How the data were processed

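CAL-27 cells were sequenced at 48 h (Control, siLEF1 and siKDM4A, n = 3 each) after poly(A) selection with a stranded mRNA kit. The study's methods call the libraries of a group independent samples, without naming separate cultures, so p-values measure the spread between these samples. Per the labels the authors used Trimmomatic, HISAT2, Cufflinks and HTSeq on hg38 (no versions given), and the deposited value is FPKM per gene. FPKM fixes each library's total, so a change in a few abundant genes shifts the others.

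The groups were compared with limma 3.58.1 (R 4.3.3), with a trended prior, on log2(FPKM + 0.1). Genes averaging under 0.1 FPKM over the libraries fitted were left out. Each knockdown was fitted with Control (6 libraries) and the knockdowns were compared in 1 fit of 9. P-values were adjusted by the Benjamini-Hochberg method over all genes tested, and calls needed a fold change above 1.5 beside an adjusted p below 0.05, thresholds the study's methods also use. A fold change of FPKM + 0.1 understates that of low genes.

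Whole reads were recovered from the FPKM for 33208 of 33216 genes (99.976%, within 0.05 of a whole number), 31601 of them with the GENCODE 29 exon length and the others with a length at which all libraries gave whole numbers, which gave the read counts and an alternative test with limma-voom. Replicates differed by more than counting error, at 1.96 to 3.31 for the chi-square per gene. Same-numbered libraries deviated together with correlations of -0.040 to 0.043, so the replicate numbers showed no detectable pairing of the samples. These correlations cannot show whether same-numbered samples were handled together. On simulated data the test recovered 88 of 100 changes of 2-fold in the siLEF1 design and 81 of 100 in the siKDM4A design. False calls were 26 of 211 and 31 of 208. This share was above the level set for the adjusted p, so calls, those near the thresholds included, are less certain than it states. The simulation changed 100 genes by 2-fold and as many by a larger fold, fewer than were called in the data. Genes with few reads in Control were left unchanged, and the same spread was set for all genes. Recovery among genes with few reads, and the share of false calls in the data, can thus differ from these values. Positions and exon overlaps are from GENCODE 29 (GRCh38), promoter windows from RefSeq.

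The 49 genes, their roles and the other lists were chosen with earlier results of these data known, and 1 further pathway gene is not reported here. Values were written out for the genes with the largest fold changes in each comparison, the 3 most abundant, the transcription factors and the neighbouring pairs and clusters, and the other genes of each role were added. Alternatives changed the pseudocount, the filter, the thresholds, the scaling, the test, the libraries and the motif spacing. Python 3.11.15, pandas 2.3.3, numpy 2.4.6 and matplotlib 3.10.9 were used.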

Additional observations from a re-analysis of the deposited data

How the results depend on the processing

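The counts of lowered genes among the 49 were 11 in siLEF1, 26 in siKDM4A and 15 for siKDM4A against siLEF1, and no gene changed direction while called. Without 1 library these counts were 10 to 12, 26 and 13 to 17, the 2 genes higher in siKDM4A than in siLEF1 remained 2 in number, and the medians ranged from -0.28 to -0.23, from -0.70 to -0.64 and from -0.38 to -0.32. With the replicate number as a block the counts were 11, 26, 15 and 2 with no call changed, although the numbers showed no detectable pairing of the samples. With limma-voom on recovered reads they were 11, 26 and 16.

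With a pseudocount of 1 FPKM the medians were -0.19, -0.50 and -0.28, and 8 genes were lower in siKDM4A than in siLEF1. With genes of at least 1 FPKM the siKDM4A median was -0.66, and with libraries rescaled it was -0.63. A fold change above 2 left 4, 11 and 4 lowered genes and 0 higher in siKDM4A than in siLEF1. The adjusted p alone gave 28 lowered and 5 raised in siLEF1, 40 and 3 in siKDM4A, and 33 and 6 between them. In either direction it was reached by 7104 of 21831, 7025 of 21253 and 8285 of 21587 genes tested. A test against a fold of 1.5 (limma's treat) gave 7, 14, 7 and 1. Shares of all genes were not computed for a fold change above 2 or for treat. With a spacing of 1 to 3 bases, 79.5% of the windows of the listed genes held an ISRE core and 8.68% of all windows. Counting each of the 49 genes once for each comparison and alternative, 84 of 2784 values lost a call and 70 gained one. Genes with few reads (IRF9, CMPK2 and IFI44L, 6, 27 and 59 at the lowest) and the interferon genes are limited by depth, and small differences there were not detectable.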

Other observations

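Beyond the 49 genes, 28 further genes known to respond to interferon were measured, of which 3 were lowered and 1 raised in siLEF1 and 7 lowered and 0 raised in siKDM4A (limma, fold change above 1.5). The shares of 10.7% and 3.57% in siLEF1 and 25% in siKDM4A stand beside 5.31% lowered and 6.31% raised of all genes in siLEF1 and 7.80% lowered in siKDM4A. The 28 genes had medians of -0.19 and -0.32 on the log2 scale. PARP12, an ADP-ribosyltransferase of stress granules, was lowered in both, at 22.6, 22.1 and 22.5 FPKM in Control, 14.2, 13.6 and 12.9 in siLEF1 and 10.2, 9.50 and 9.47 in siKDM4A. GBP4 was lowered in both as well, with log2 fold changes of -0.76 and -0.83. PARP10 was lowered in siLEF1 alone by the thresholds (-0.84, adjusted p = 0.00012), and its difference between the knockdowns was 0.85 (adjusted p = 3.6e-06). In siKDM4A the other lowered genes were BATF2 (-1.29), the chemokine gene CXCL11 (-1.12), RTP4 (-0.85), TDRD7 (-0.84) and ZC3HAV1 (-0.74), which encodes the zinc finger antiviral protein. GBP5 was raised in siLEF1 (0.96, adjusted p = 0.015), from 0.328 ± 0.0456 to 0.735 ± 0.107 FPKM (SD, n = 3).

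The chemokine genes CXCL10 and CXCL11 lie together and are both known interferon targets, yet only CXCL11 passed in siKDM4A. CXCL10 was at 19.8, 13.5 and 18.8 FPKM in Control, 13.1, 13.9 and 14.03 in siLEF1 and 14.5, 12.7 and 16.4 in siKDM4A, and CXCL11 at 10.03, 6.88 and 7.31 FPKM in Control, 8.56, 7.40 and 6.43 in siLEF1 and 3.67, 3.27 and 3.89 in siKDM4A. The CXCL10 groups overlapped (log2 difference in siKDM4A -0.24, adjusted p = 0.31), and whether the pair differed from each other in response was not tested. ADAR, NMI and IFI16, which are also known to respond to interferon, stayed within a log2 difference of -0.21 to 0.30 in both comparisons.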
